A study of Canis lupus familiaris with 26 samples.

Results

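The corpus luteum (CL) is the gland that forms from the ovulated follicle and secretes progesterone. The genes described here are 74 genes of the cell cycle and of mitosis, with the kinesin family, among 19856 genes counted in the canine CL. A gene was a member if its symbol on the study's lists of differentially expressed genes (DEGs) named a cyclin of the A, B, D or E type, a cyclin-dependent kinase (CDK) or its inhibitor, a CDC or CDCA protein other than CDC42, an MCM, ORC or GINS replication protein, a centromere protein (CENP), an E2F factor, a kinesin (KIF), an Aurora or polo-like kinase, BUB1, MKI67 or TOP2A. The lists held 4888 identifiers, of which 4355 had a symbol. Of the members, 60 stood on the list for time (mature over early CL in control dogs), 32 on the list for treatment on day 20, 6 on that for day 30, and 0 on those for days 5 and 10. By source, 38 members came from the list for time alone, 22 from that list and a treatment list, and 14 from a treatment list alone.

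The CL were taken from 26 bitches of mixed breeds, each sampled once. On the day of ovulation (day 0), dogs entered either a group treated with firocoxib, an inhibitor of cyclooxygenase 2 (COX2, PTGS2) given by mouth at 10 mg/kg daily until collection, or a control group, which received a placebo per the protocol and is called untreated elsewhere in the labels. CL were collected on days 5, 10, 20 and 30. The samples used here came from 4 control and 4 treated dogs on day 5 and 3 of each on each later day. Per the paper, further libraries of both arms were sequenced and then removed as outliers, judged by correlations between samples and by scatter plots. Those libraries are absent here, so the correlations within groups and the spread behind the P values below describe a set already selected for likeness. The effect of that removal was not tested. Days 5 and 10 are called early CL and days 20 and 30 mature CL. Whole CL were used, with no sorting of cells, so fewer cells of a type and less RNA per cell cannot be told apart in any value below.

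Cells divide by a fixed sequence of steps. Cyclins switch on CDKs, and inhibitors such as CDKN1A (p21) and CDKN2C (p18) hold them back. The origin recognition complex and the MCM helicase prepare DNA for copying, and CDC45 and the GINS complex start the helicase. In mitosis, centromere proteins tie chromosomes to the spindle, the BUB1 checkpoint waits for attachment, CDC20 activates the anaphase-promoting complex (APC/C), and mitotic kinesins move the chromosomes. Other kinesins carry cargo along microtubules in cells that do not divide. In the young CL, dividing cells include the endothelial cells of its growing capillaries, whereas its steroidogenic cells no longer divide once mature.

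Depth ranged from 12831896 to 22658950 assigned reads per library, with a median of 17909941.5, and 16 members had a mean under 50 reads. Of the luteal markers with an identifier, LHCGR and PRLR together stood between 102 and 508 CPM (assigned reads scaled to a common library size) in every group. The libraries day 5 treated 1, day 10 treated 1 and day 20 treated 2 are called the 3 alike libraries below. They correlated with one another at 0.932 to 0.942 (Pearson's r of log2 CPM across genes, which are not independent), above their mean r with their own groups (0.851 and 0.862 for the first and the second, and the lowest of all 26 for the third). Day 20 treated 3 also had a low mean r with its group, 0.835, and 12 of the 26 libraries had their best match in another group. In these 3 libraries 11 members, among them KIF5B, CDC7, CENPC, ORC2, ORC4, CDK8 and KIF21A, had their 3 lowest levels of all 26, against 22.1% of all genes. KIF5B, the heavy chain of conventional kinesin, stood there at 19.5, 24.4 and 18.0 CPM and at 61.0 CPM or more elsewhere.

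Among the control dogs, most members stood lower in mature than in early CL. In edgeR's quasi-likelihood test 37 of 74 members were called lower and 14 higher in mature CL (7 early, 6 mature samples), a call being P under 0.01 with a false discovery rate (FDR) under 0.1. Over all 13503 genes tested, 20.5% were called, 10.4% lower and 10.1% higher. Because this contrast chose 60 of the members, these are values of the choice and no test. By role, 7 of 13 replication members, 4 of 7 mitotic kinesins and 5 of 7 centromere proteins were called lower and 0 higher, and of the 9 checkpoint, kinase and APC/C genes 6 were called lower and 2 higher. Of the 13 transport and other kinesins 6 were called higher and 2 lower. KIF1BP, a kinesin binding protein and itself no kinesin, is counted among these 13 throughout. CDC20 stood at 5.39, 8.60 and 12.9 CPM (lowest, median and highest) in early and at 0.721, 1.86 and 3.32 CPM in mature control CL, with no overlap. CENPA, the centromere's own histone, stood at 0.775 to 1.41 CPM in early and 0.105 to 0.249 CPM in mature control CL. It had few reads, with a mean of 14 over the 26 samples. CDKN1A went the other way, from a median of 60.8 CPM to one of 86.5 CPM, and the 2 ranges overlapped. The smallest difference among members on the list for time was that of CDC23, an APC/C subunit (log2 fold change 0.36 ± 0.11, SE). Among members off that list, MCM4 (-0.33 ± 0.13) lay near it, and KIF1A, a neuronal kinesin with few reads, reached 1.51 ± 0.59. Marker sums, from genes on the DEG lists, moved too: 5 fibroblast and mural markers summed to 7280 to 12800 CPM in control CL on day 5, 2760 to 4000 on day 10, 1760 to 4210 on day 20 and 2470 to 3480 on day 30. Those of 5 oocyte markers reached 114 CPM in early and 23.3 CPM in mature control CL. The endothelial sum went up in controls, from 509 to 1320 CPM on day 5 to 1410 to 1720 on day 30. INHA with FSHR, of granulosa cells, stood at 665 to 1480 CPM on day 5 and 1500 to 1760 on day 30. Immune sums were 41.3 to 158 and 31 to 55.1 CPM on these days, and LHCGR with PRLR 182 to 371 and 227 to 326 CPM. The part of all these sums in the members' values was not tested.

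The list for time was made from control samples alone, so the treated samples could test maturation in all 60 members on it. Of these, 5 were called lower in mature treated CL and 0 higher, which is 8.33% of 60, against 4.65% of the 13747 genes tested (3.11% lower, 1.54% higher). They were CDKN2C, CDC20, KIF26B and KIFC3, which are among the 38 on the list for time alone, and CCND3, one of the 22 also on a treatment list. The number hung on the samples and the method: DESeq2 called 9, a fit without day 30 called 0, and leaving out 1 sample at a time gave 1 to 10. It was 1 without any one day 30 treated sample, 2 without day 5 treated 1, 2 or 5 or day 20 treated 3 or 4, 3 without day 10 treated 1, and 10 without day 20 treated 2.

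CDKN2C, the inhibitor of CDK4 and CDK6, had the lowest FDR of the 60. In early treated CL it stood at 130, 111, 98.5 and 109 CPM on day 5 and 126, 68.5 and 72.4 CPM on day 10. In mature treated CL it stood at 33.7, 24.6 and 23.04 CPM on day 20 and 22.1, 44.9 and 22.2 CPM on day 30. Every mature sample lay below every early one, as 0.946% of all genes did. The log2 fold change was -1.82 ± 0.26 (SE; edgeR FDR 0.0046, 7 early and 6 mature samples), and CDKN2C was called in 22 of 23 alternatives. In control CL the log2 fold change was -1.94 ± 0.18, with 52.2 to 122 CPM in early and 18.8 to 26.6 CPM in mature samples.

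CDC20 fell by 1.98 on the log2 scale (SE 0.56, edgeR FDR 0.0836). Its early treated values ran from 3.08 to 27.6 CPM with a median of 12.4, and its mature treated values from 0.847 to 5.77 CPM with a median of 4.23, so the ranges overlapped. KIFC3, a minus-end directed kinesin, fell by 1.83 (SE 0.48, edgeR FDR 0.0649), from a median of 42.7 CPM (16.6 to 92.8) to one of 8.79 CPM (6.61 to 29.1). KIF26B, an atypical kinesin with few reads, fell by 1.97 (SE 0.57, edgeR FDR 0.0886), from a median of 1.32 CPM (0.577 to 6.91) to one of 0.488 CPM (0.350 to 0.962). Of the 23 alternatives 9 called CDC20, 12 KIFC3 and 7 KIF26B. Without the 3 alike libraries (5 early, 5 mature samples) 5 of the 60 were called lower, namely CDKN2C, KIFC3, CCND3, CDK1 and CDK14, and 1 higher, CDK19, with 11.5% of all genes called.

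**Figure D1:**
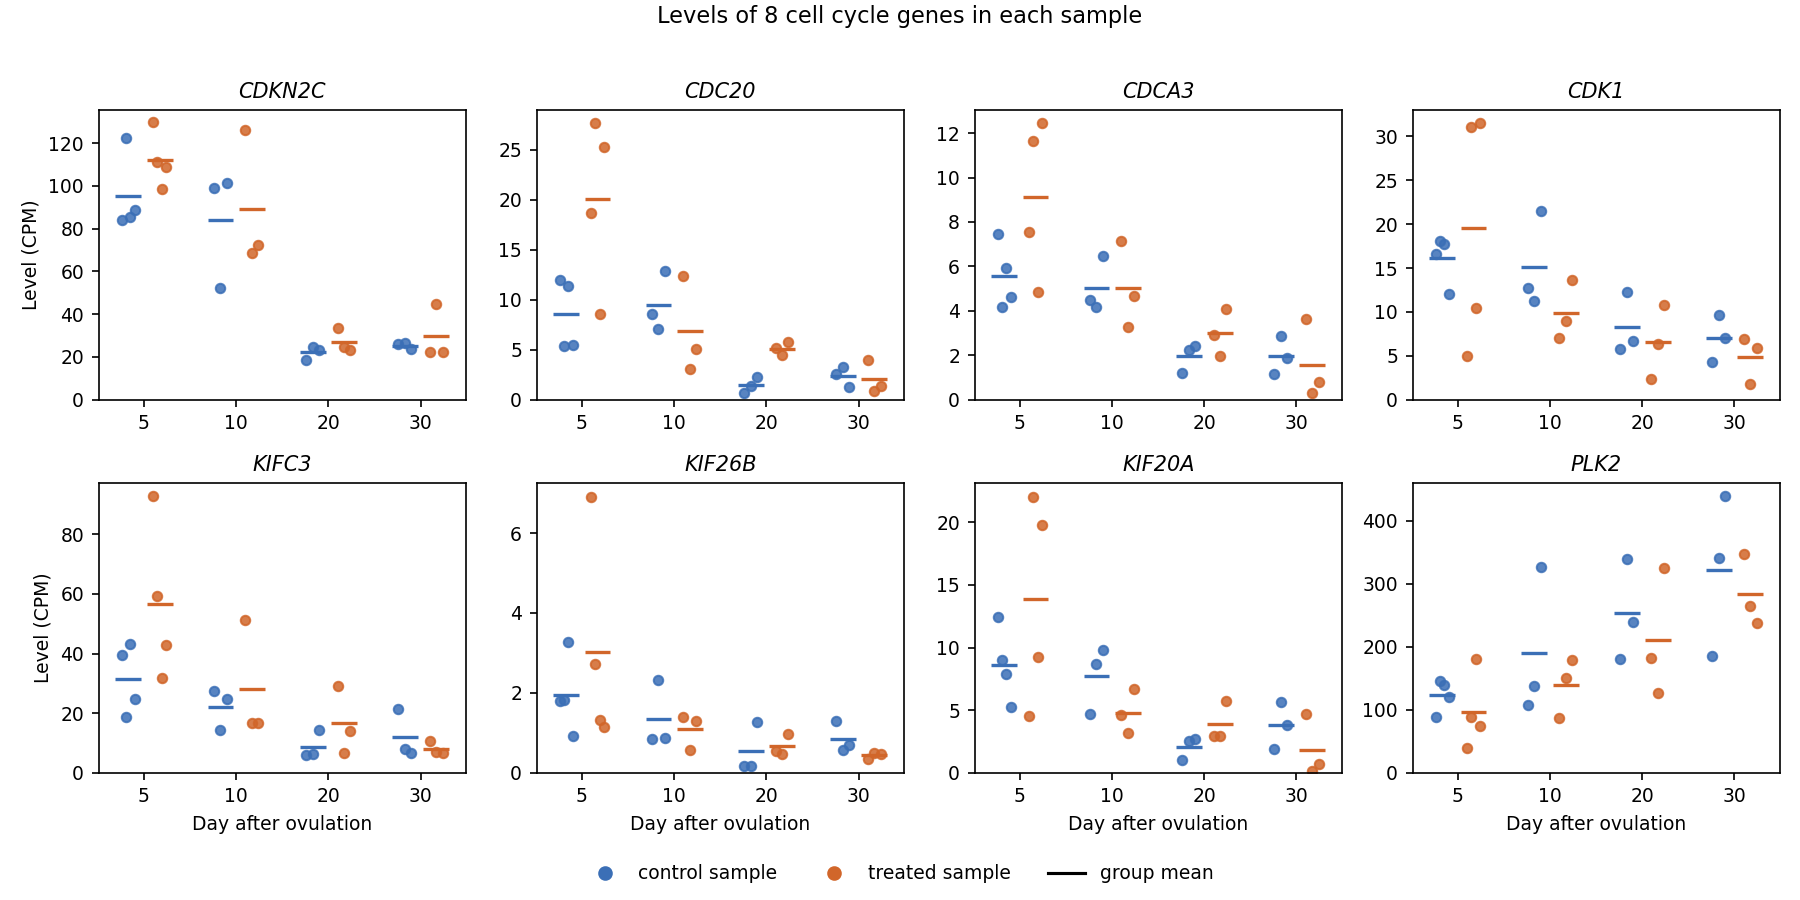
Levels in CPM (vertical axes) of 8 members by day after ovulation (horizontal axes), with 1 point per sample and a bar at each group mean. CDKN2C stood at 52.2 CPM or more in every early sample and at 44.9 CPM or less in every mature one in both arms, whereas CDC20, CDK1 and KIF20A had their highest values in 2 day 5 treated samples.

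Of the 45 members on the list that were lower in mature control CL, 40 were also lower in mature treated CL and 5 were higher, namely CDCA5, CDCA7L, CDK2, CENPU and GINS2. Their median log2 fold change was -1.26 in control and -0.91 in treated CL, where 15 were lower at an unadjusted P under 0.05. Of 1394 genes of any kind called lower in mature control CL, 85.5% were lower and 21.7% called lower in mature treated CL, against 88.9% and 11.1% of the 45. These sets are unlike: edgeR calls chose the 1394, and the study's list chose the 45. EdgeR called 37 of all 74 members lower in mature control CL. Absence from the treatment lists, which used treated and control samples of days 20 and 30, split the 45. The 26 on the list for time alone had a treated median of -1.24 and all 26 were lower in mature treated CL, and the 19 also on a treatment list had a treated median of -0.27 (control median -1.24) and 14 were lower. Since that split depended on treated samples, it is a description. Of the 15 members higher in mature control CL, 12 were higher in mature treated CL. Only PLK2, a polo-like kinase that many stimuli induce, had P under 0.05 there: it ran from 38.8 to 181 CPM in early and from 126 to 347 CPM in mature treated CL, a log2 difference of 1.13 ± 0.36 with edgeR FDR 0.114, which missed the threshold. No member was called in the test of the difference between both maturations (0 of 13865 genes called, or 0%, and 1016 at P under 0.05; DESeq2 called 155 genes, among them 1 member).

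**Figure D2:**
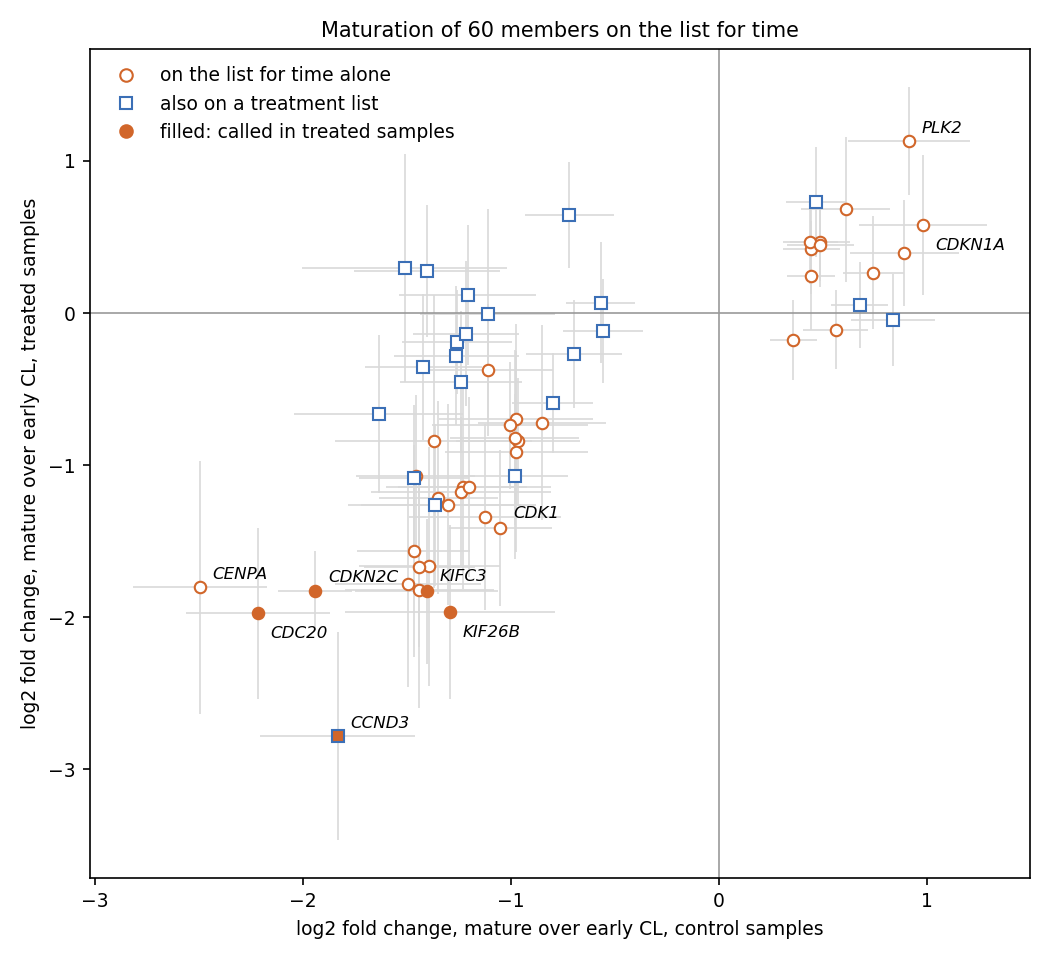
Log2 fold change of mature over early CL in control samples (horizontal axis) and in treated samples (vertical axis) for the 60 members on the list for time, with bars of 1 SE, squares for the 22 also on a treatment list and filled points for the 5 called in treated samples. Of the 45 members below 0 in control samples 40 lie below 0 in treated samples, the other 5 being squares, and 12 of the other 15 lie above 0 in both.

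By day, the calls in control CL were between days 10 and 20. Of the members 21 were called lower and 5 higher on day 20 than on day 10, against 10.9% of all 13727 genes (4.78% lower, 6.09% higher). These samples belong to the contrast that chose the members. The count fell to 0 without day 10 control 4, to 1 without day 20 control 1, to 3 without day 20 control 2, to 4 without day 10 control 2 and to 15 without day 10 control 3, and that of all genes, 1492, ran from 1 to 2085 with 1 sample left out. The lowest of those called were CDC20 (-2.65), CENPA (-2.63, with few reads), MCM5 (-2.22) and CDKN2C (-1.90). The highest of those called was KIF13B (1.18), a kinesin of vesicle transport. No member was called between days 5 and 10 or days 20 and 30 in controls (0% of all genes in either step; 941 and 1189 genes at P under 0.05, 129 and 34 called by DESeq2).

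Between successive days of treatment 0 members were called, as were 0% of genes in each step (720, 886 and 1395 genes at P under 0.05 from day 5 to 30; 50, 109 and 362 called by DESeq2). All steps shared a fit of the 13 treated samples, days 20 and 30 included, which set the spread behind their P values. The samples compared from day 5 to 10 entered no list that held a member. There the median log2 difference of the 74 was -0.59, against -0.02 over all genes, 9 were lower and 0 higher at P under 0.05, and the smallest FDR was 0.898. Of all 14055 genes tested in that step, 548 were lower and 172 higher at edgeR P under 0.05. CCNA2, the S and G2 phase cyclin, stood at 2.28, 20.1, 4.70 and 11.4 CPM on day 5 and at 1.47, 2.18 and 3.54 CPM on day 10. The day 5 treated group was itself split: 16 members, CDK1, CDC20, BUB1, PLK1 and CCNA2 among them, had their 2 highest levels of all 26 in day 5 treated 2 and 5, as did 1.72% of all genes. These 2 libraries were picked after the values were seen, so this count is a description and no test. For the step from day 20 to 30 the members' median was -0.57, against -0.09 over all genes. Day 20 treated samples entered the list that chose 32 members, and day 30 treated samples that of 6. This median therefore describes the choice.

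**Figure D3:**
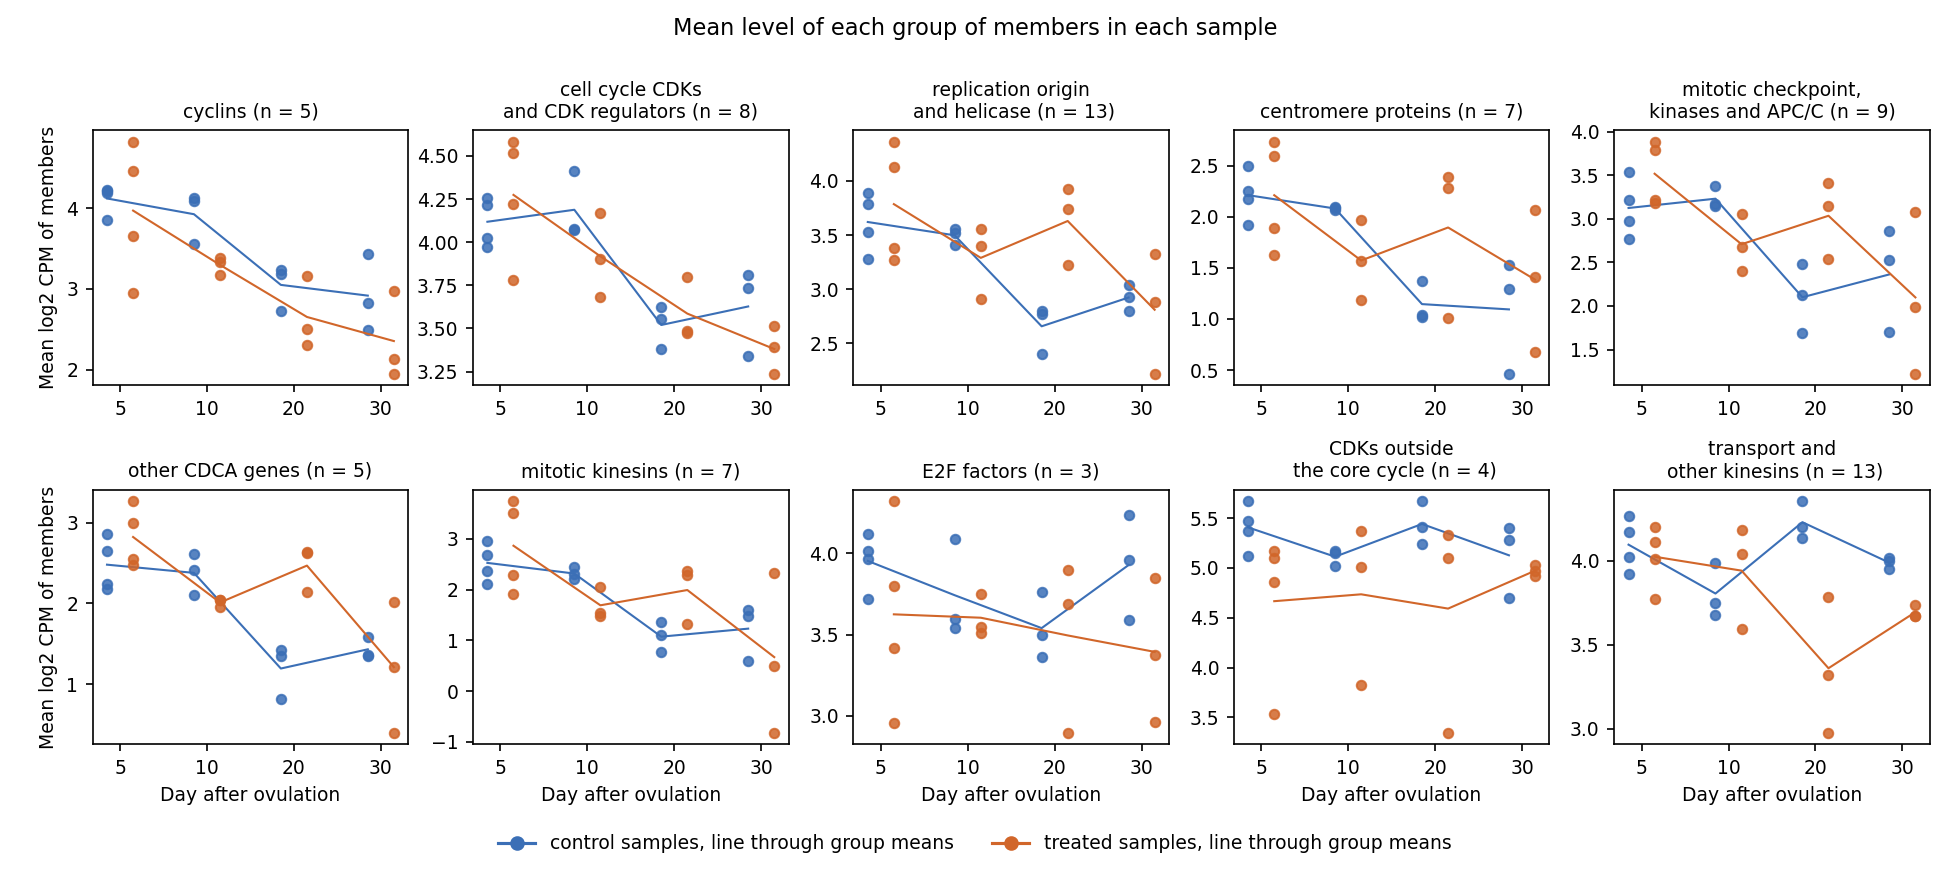
Mean log2 CPM of the members of each role (vertical axes, n genes each) by day after ovulation (horizontal axes), 1 point per sample, with lines through the group means. Control means of the replication, centromere, checkpoint, CDCA and mitotic kinesin members drop from day 10 to day 20, where the treated means lie above them, and the treated mean of the transport kinesins lies below that of the controls on day 20.

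On day 20 no member was called for treatment, and the values of the samples are given as a description. All 3 treated samples lay above all 3 controls for 28 of 73 members tested and below them for 12, against 16.1% and 14.2% of all 13726 genes (30.3% together). The members' median log2 difference was 0.59, against 0.11 over all genes. Since this contrast chose 32 of the members, and its controls also entered the list for time, these values describe the choice. EdgeR called 0 members in the day 20 samples alone, where 0.102% of all genes were called and 2338 genes had P under 0.05. A fit of all 26 samples called 27 members (18 higher, 9 lower), DESeq2 called 21 (18 higher, 3 lower), and without day 20 treated 2 edgeR called 11 (9 higher, 2 lower).

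**Figure D4:**
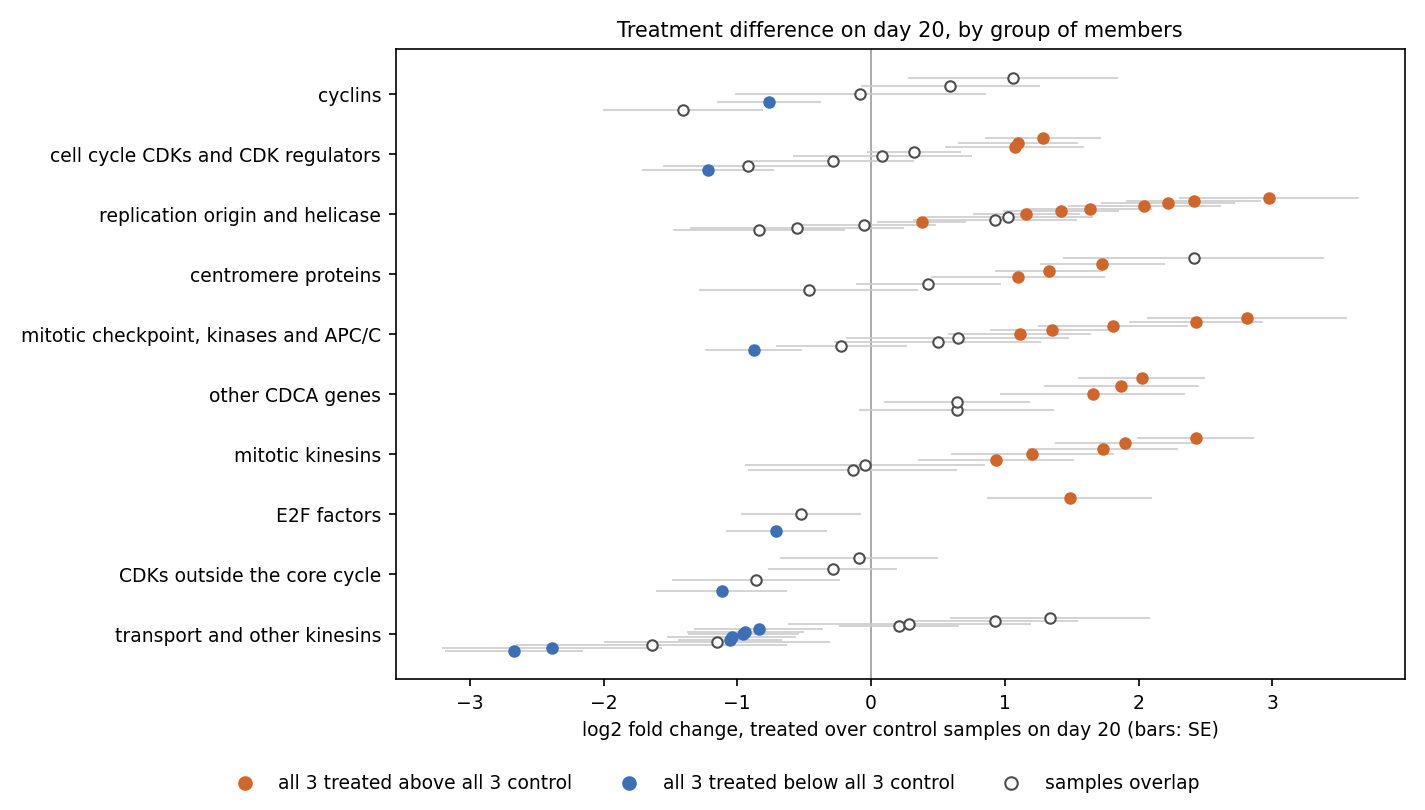
Log2 fold change of treated over control samples on day 20 (horizontal axis, bars of 1 SE) for the 73 members tested, by role (vertical axis). Filled points mark members whose 3 treated samples all lay above (28) or all below (12) the 3 controls: the 28 lie outside the transport kinesins, which hold 7 of the 12.

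Several cell type markers moved with these values. They had an identifier only if on a DEG list, and all 5 oocyte markers (ZP2, ZP3, ZP4, BMP15 and GDF9), PRLR, FSHR, COL1A2, MYH11 and RGS5 were on the day 20 list, so their day 20 difference is part of how they came to be measured. The summed level of oocyte markers was 148 to 258 CPM in day 20 treated samples and 4.57 to 9.14 CPM in day 20 controls, where ZP4 was at 0 in all 3. That sum was also high in other groups, up to 95.7 CPM in day 5 control, 92.2 in day 5 treated, 114 in day 10 control and 128 in day 30 treated samples. The sum of INHA and FSHR, of granulosa cells, was 283 to 808 CPM in treated and 1740 to 2480 CPM in control CL on day 20, and LHCGR with PRLR was 112 to 245 and 308 to 508 CPM. The sum of 5 fibroblast and mural markers was 6350 to 9170 CPM in treated and 1760 to 4210 CPM in control CL on day 20, and 6820 to 18200 CPM on day 5 in treated dogs. Endothelial (245 to 1300 and 886 to 1130 CPM, 4 markers) and immune sums (17.3 to 82.1 and 49.8 to 81.8 CPM, 2 markers) overlapped on day 20. Their part in the members' values was not tested.

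Of the 13 replication members, 10 had a positive log2 difference on day 20 and 3 a negative one, by the values of the choice. MCM5, a subunit of the replicative helicase, stood at 21.5, 11.9 and 11.5 CPM in treated and at 0.721, 1.34 and 3.69 CPM in control CL (log2 difference 2.97 ± 0.67, SE). MCM2 stood at 29.1, 16.6 and 18.6 CPM in treated and 2.52, 3.23 and 6.48 CPM in control CL (2.41 ± 0.51). These treated values lie within the range of early CL, which was 4.22 to 31.4 CPM for MCM5 and 7.88 to 35.4 CPM for MCM2. On day 30 treated dogs had 6.70, 1.98 and 4.12 CPM of MCM5 and controls 5.20, 3.38 and 3.30 CPM, so the groups overlapped again.

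GINS2, of the GINS complex, stood at 4.09, 4.34 and 3.80 CPM in treated and 0.841, 1.16 and 0.685 CPM in control CL on day 20 (2.22 ± 0.50). CDC45 (2.04 ± 0.57), ORC1 (1.63 ± 0.47) and MCM7 (1.42 ± 0.43) were also above every control. In all, 8 of 13 replication members separated upward and 0 downward, against 16.1% and 14.2% of all genes. CDC7, the kinase that fires origins, and ORC2 had their lowest level of all 26 in day 20 treated 2, and ORC4 its lowest in day 5 treated 1. CDC7 stood at 2.80, 43.5 and 28.4 CPM in treated and 37.3, 47.4 and 29.1 CPM in control CL. In the maturation of treated dogs 0 of 13 replication members were called, and the 4 chosen by time alone (CDC7, MCM10, ORC2 and ORC6) had log2 fold changes from -0.82 to 0.68.

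Among CDKs, CDK4, the partner of the D-type cyclins, stood at 144, 78.7 and 86.5 CPM in treated and 30.2, 41.8 and 56.9 CPM in control CL on day 20 (1.29 ± 0.43). CDK4 and CENPV were the members with their 3 highest levels of all 26 in the 3 alike libraries, of which day 20 treated 2 is one. CDK2, the partner of cyclins E and A, stood at 8.50, 11.6 and 5.52 CPM against 3.42, 4.39 and 4.42 CPM (1.10 ± 0.45). CDK1, the mitotic CDK, did not separate: 2.42, 6.41 and 10.8 CPM in treated and 5.83, 12.3 and 6.69 CPM in control CL (-0.29 ± 0.61). In treated dogs mature CL differed from early CL by -1.42 ± 0.51 on the log2 scale for CDK1 (edgeR FDR 0.153), and by -1.34 ± 0.61 for its phosphatase CDKN3 (edgeR FDR 0.24), which stayed at 3.93 CPM or less in every sample. CDC14B, a phosphatase of mitotic exit, lay below its controls on day 20, at 9.04, 17.1 and 30.2 CPM against 44.8, 52.3 and 38.4 CPM (-1.22 ± 0.49).

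The cyclins had no member above all controls on day 20. CCND3, a D-type cyclin, spread widely, at 405, 108, 224 and 244 CPM on day 5 and 510, 87.1 and 62.7 CPM on day 10 in treated CL. In mature treated CL it stood at 89.5, 4.58 and 51.7 CPM on day 20 and 31.5, 13.8 and 11.0 CPM on day 30 (mature over early -2.78 ± 0.68, edgeR FDR 0.0539, called in 17 of 23 alternatives). The day 30 controls stood at 53.6, 46.9 and 20.9 CPM and overlapped with the treated samples. CCND2 on day 30 stood at 22.6, 18.1 and 24.0 CPM in treated and 39.9, 49.6 and 51.9 CPM in control CL (-1.01 by log2). CCNA1, a cyclin of germ cells, had a log2 fold change of -1.46 ± 0.39 over treated maturation, from 2.64 to 10.2 CPM in early to 1.11 to 3.73 CPM in mature CL. CCND2 and CCNA1 came from treatment lists, which used these treated samples, and CCND3 was on the list for time and on that for day 30.

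Of the centromere proteins, CENPP stood at 4.25, 3.81 and 4.25 CPM in treated and 1.14, 1.22 and 1.42 CPM in control CL on day 20 (1.73 ± 0.47). CENPV stood at 19.3, 13.1 and 14.9 CPM against 4.57, 6.70 and 7.85 CPM (1.33 ± 0.40), and CENPW at 0.914, 2.65 and 1.22 CPM against 0.841, 0.548 and 0.895 CPM (1.10 ± 0.65). CENPA fell short of the minimum of 10 reads on average in either day 20 group and was not tested there. Over treated maturation CENPA went from a median of 0.940 CPM to one of 0.126 CPM (-1.80 ± 0.83, edgeR FDR 0.246). CENPC, which joins centromeric chromatin to the kinetochore, was on the day 30 list, with 39.5, 41.4 and 55.1 CPM in treated and 8.14, 23.7 and 32.7 CPM in control CL.

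Among mitotic kinases and checkpoint genes, AURKB, the kinase of the chromosomal passenger complex, stood at 8.61, 12.6 and 7.39 CPM in treated and 1.08, 2.07 and 2.27 CPM in control CL on day 20 (2.43 ± 0.50). PLK1 (1.36 ± 0.46) and CDCA8, the passenger protein borealin (1.11 ± 0.53), were also above every control. The checkpoint genes BUB1 and BUB1B overlapped between the arms: BUB1 stood at 0.914, 4.87 and 5.62 CPM in treated and 1.08, 3.35 and 3.90 CPM in control CL. AURKC, the Aurora kinase of germ cells, stood at 2.69, 4.62 and 5.01 CPM against 0.421, 0.183 and 1.16 CPM. AURKB and AURKC are close paralogs, and how reads fitting both were counted is not given in the sources used here.

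Of the 10 libraries highest in AURKC, 9 were among the 10 with the highest sum of oocyte markers (58.9 CPM or more). The same count was 8 for KIF2C, CDCA7L and GINS2, 6 for CDK2 and MCM5, 4 for CDC20 and 4 in the median member. AURKC, KIF2C, CDCA7L, GINS2, CDK2, MCM5 and all 5 oocyte markers were on the day 20 list. High places that they share in day 20 treated samples are part of that choice. KIF2C, a kinesin that depolymerises microtubules at centromeres, stood at 22.6, 38.3 and 25.4 CPM in treated and 7.57, 4.45 and 4.48 CPM in control CL on day 20 (2.43 ± 0.44). CDCA7L, a regulator related to MYC, stood at 45.7, 127 and 78.7 CPM against 18.9, 21.1 and 23.7 CPM (2.02 ± 0.47). The part of the oocyte markers in these values was not tested.

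Of the 7 mitotic kinesins, 5 separated upward on day 20 and 0 downward, against 16.1% and 14.2% of all genes. The day 20 contrast chose 32 of the members, KIF22 and KIF2C among them. KIFC1 stood at 5.06, 7.23 and 5.01 CPM in treated and 0.962, 2.38 and 1.42 CPM in control CL (1.90 ± 0.52), and KIF22, which binds chromosome arms, at 7.69, 4.19 and 6.83 CPM against 0.901, 2.01 and 2.79 CPM (1.73 ± 0.56). KIF14 and KIF15 overlapped. KIF20A, a kinesin of cytokinesis, had the lowest P of its group in treated maturation and was not called (-1.78 ± 0.67, edgeR FDR 0.166). It went from a median of 6.65 CPM (3.14 to 22.0) to one of 2.95 CPM (0.141 to 5.77), with its lowest level of all 26 in day 30 treated 4. The day 30 treated samples were spread: the mean log2 CPM of the 7 mitotic kinesins was 2.34, -0.82 and 0.50 in samples 2, 4 and 5. In early treated CL that mean ran from 1.47 to 3.74. Of the other CDCA genes, CDCA3, which targets WEE1 for destruction, went from 3.27 to 12.4 CPM in early to 0.282 to 4.10 CPM in mature treated CL (-1.67 ± 0.53, edgeR FDR 0.114) and CDCA4 had -1.17 ± 0.49 (edgeR FDR 0.207).

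**Figure D5:**
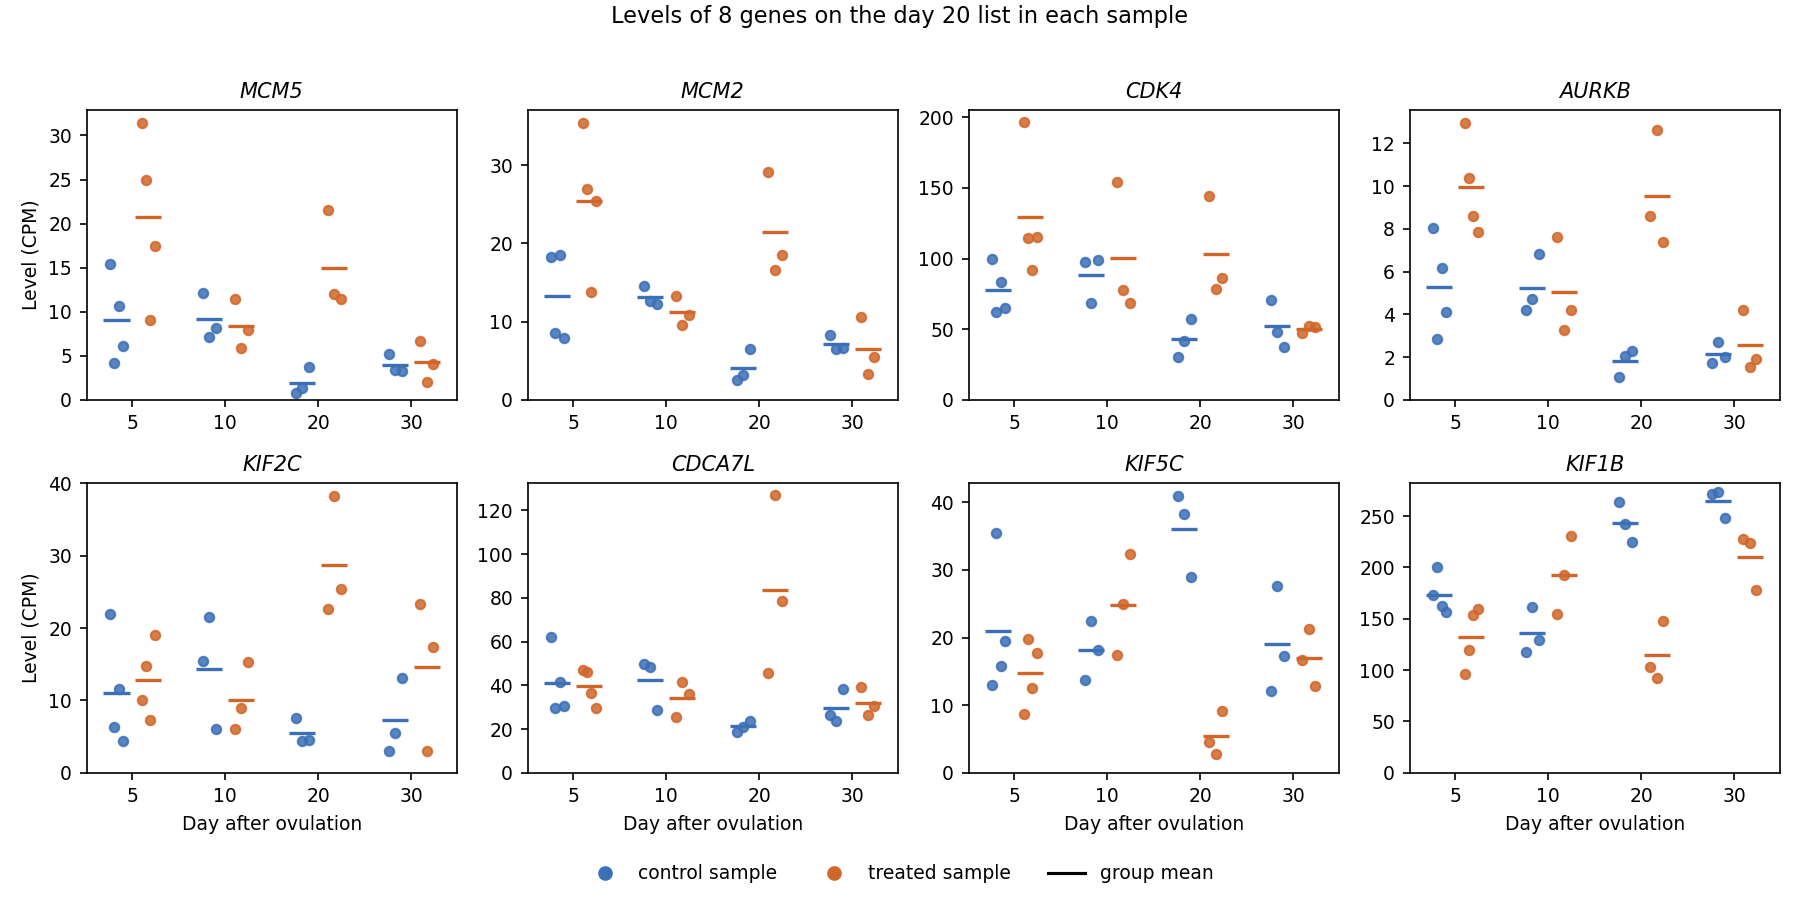
Levels in CPM (vertical axes) of 8 genes on the list for treatment on day 20 by day after ovulation (horizontal axes), with 1 point per sample and a bar at each group mean. The 3 treated samples lie above the 3 controls on day 20 for MCM5, MCM2, CDK4, AURKB, KIF2C and CDCA7L and below them for KIF5C and KIF1B.

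Of the 13 transport and other kinesins, 7 separated downward on day 20 and 0 upward, against 14.2% and 16.1% of all genes. On that day 9 had a negative and 4 a positive log2 difference, none called. KIF5C, a neuronal conventional kinesin, stood at 4.57, 2.84 and 9.11 CPM in treated and 40.9, 38.3 and 29.0 CPM in control CL (-2.67 ± 0.52). KIF1B, which carries mitochondria and vesicles, stood at 103, 92.2 and 148 CPM against 264, 242 and 224 CPM (-1.05 ± 0.39). KIF21A stood at 1.61, 17.4 and 15.9 CPM against 89.0, 68.5 and 33.1 CPM (-2.39 ± 0.82). On day 30 KIF21A had the reverse order, 26.9, 41.4 and 43.7 CPM in treated and 12.2, 26.2 and 22.9 CPM in control CL. KIF13B lay below its controls on both days, with 32.8, 33.2 and 65.1 CPM against 110, 79.6 and 69.5 CPM on day 20 and 60.7, 57.2 and 51.2 CPM against 91.1, 104 and 107 CPM on day 30. KIF21A and KIF13B were on the treatment lists for days 20 and 30, so their values on both days describe the choice.

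Of the 3 E2F factors 1 separated upward and 1 downward on day 20, and of the 4 CDKs outside the core cycle 0 upward and 1 downward. The shares of all genes were 16.1% upward and 14.2% downward. E2F8, an atypical repressor of the E2F family, stood at 1.02, 1.74 and 2.28 CPM in treated and 0.421, 0.731 and 0.685 CPM in control CL on day 20 (1.49 ± 0.62), and E2F6 lay below its controls (-0.71 ± 0.38). Over treated maturation the log2 fold change was -1.26 ± 0.66 for E2F8, 0.47 ± 0.26 for E2F5 and 0.46 ± 0.28 for E2F6, none called. CDK8, of the Mediator kinase module, lay below its controls on day 20 (-1.11 ± 0.49), and CDK13, a kinase of RNA polymerase II, overlapped with them (-0.29 ± 0.48).

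On days 5, 10 and 30 no member was called for treatment, as were 0% of genes on each day (1609, 121 and 1074 genes at P under 0.05; 100, 0 and 116 called by DESeq2, with 0, 0 and 2 members). Of the 14 members from treatment lists alone, 1 had P under 0.05 on day 5, KIF1A (edgeR FDR 0.412). The list for time, which these 14 are not on, used the day 5 controls. KIF1A stood at 5.84 CPM in day 5 treated 1 and at 1.20 CPM or less in the other day 5 samples. Across all 74 on day 5, whose controls also entered the list for time, 13 had P under 0.05 and were higher in treated CL, among them MCM5, MCM2, CDK4, PLK1, KIF22 and CDC20, and CDK14 was lower. All genes leaned upward too: of 13651 tested on day 5, 1189 were higher and 420 lower at edgeR P under 0.05. MCM5 stood there at 31.4, 25.0, 9.06 and 17.4 CPM in treated and 15.4, 4.22, 10.7 and 6.15 CPM in control CL, and the groups overlapped. On day 30, 4 of 72 members tested separated upward and 8 downward, against 5.77% and 9.11% of all genes.

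Other genes of the pathway had identifiers only where they stood on a DEG list, so their counts share the choice of the members. Over all genes, 10.4% were called lower and 10.1% higher in mature control CL, and 3.11% lower and 1.54% higher in mature treated CL. Of the 13747 genes tested in treated CL, 1689 were lower and 1009 higher at P under 0.05. Of 34 genes of DNA synthesis, 13 had one: 8 were called lower and 1 higher in mature control CL, and 1 lower in mature treated CL, TK1, a thymidine kinase (-2.37). Of 32 genes of mitosis and cytokinesis, 17 had one: 14 were called lower and 0 higher in controls, among them UBE2C (-1.92) and NUF2 (-3.12), and 0 were called in treated CL, where 7 were lower at P under 0.05. Of 27 regulators, 14 had one: 6 were called lower and 2 higher in controls, and 1 lower in treated CL, the activator MYBL2 (-1.57). Their median treated log2 fold change was 0.59, and 5 regulators, among them MYC (1.39) and BTG2 (1.73), an inhibitor of proliferation, were higher at P under 0.05 without a call. MYC and BTG2 were on the day 20 list alone, and its treated samples are also in this contrast. Their values, and in part the median, therefore describe the choice. TK1 and MYBL2 were on the list for time alone.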

How the data were processed

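RNA of whole CL (poly-A selected TruSeq RNA v2 libraries, single-end reads) was counted in 26 samples. Per the labels, the authors aligned reads with STAR to CanFam3.1 and assigned them with featureCounts; the versions are not given in the sources used here. The deposited values are raw counts per gene for each sample, with no normalization, and replicates were not pooled. No columns of the authors' own comparisons were used; their DEG lists gave symbols and the choice of members only.

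Members, roles, pathway and marker lists were chosen with earlier results of these data known. Counts were fitted per comparison with edgeR 4.0.16 (R 4.3.3), TMM factors and quasi-likelihood tests, keeping genes that averaged 10 reads or more in a compared group; FDR is Benjamini-Hochberg adjusted over all genes tested. A call needed P under 0.01 and FDR under 0.1. CPM used TMM library sizes over all 8 groups, and log2 CPM a prior count of 2. Errors of fold changes are SE. Maturation averaged both days of a stage. In all 13 comparisons were fitted. The scripts were tested on simulated data.

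Within each role, text names go to the 3 members with the smallest P in treated maturation, those called in a treatment contrast or day step, and that with the highest level; further members were named after their values were seen. Alternatives were DESeq2 1.42.0, voom (limma 3.58.1), RLE factors, other filters, FDR under 0.05 alone, a replicate block, a fit of all samples, and left-out samples or days; leaving out the 3 alike libraries, counting treated maturation over all 60 members on the list for time rather than the 38 on it alone, and the tests between days were added after seeing the data. The libraries day 5 treated 2 and 5 were likewise picked after seeing the data. Samples came from separate dogs, so sample numbers pair nothing: 6 of 25 same-number pairs had deviations correlated above 0.1. No reference with Ensembl identifiers or sequence was at hand, so gene positions and sequences are not reported.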

Additional observations from a re-analysis of the deposited data

Results flagged for a closer look

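In 288 sets of 4 to 7 samples (48 named members, each in both day 5 groups and in the early and mature CL of each arm) the log2 level of 1 sample lay beyond Dixon's 95% limit 16 times, and chance flags about 1 set in 20. Day 20 treated 2 was the lowest of the mature treated samples in 8 of them, with CDC7 at 2.80 CPM, ORC2 at 8.23, CDK13 at 18.1, CDK19 at 17.3, CENPC at 5.38, E2F5 at 14.5, KIF5B at 18.0 and KIF3B at 13.5 CPM. Day 30 treated 4 was lowest for ORC1 (0.353 CPM) and KIF2C (2.96 CPM), and day 20 control 1 was lowest among mature controls for KIF22 (0.901 CPM). CDK14 was lowest in day 5 treated 1 (11.4 CPM). The samples highest in their sets were day 5 control 1 for CDCA8 (5.11 CPM), day 10 control 4 for PLK2 (326 CPM), day 5 treated 5 for CCND2 (127 CPM) and day 5 control 3 for CDKN2C (122 CPM).

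For 6 members the treated samples all lay on one side of the controls on one day and all on the other side on another day. The share of all genes that did so was not counted. Within a day, 4.9% (day 10), 30.3% (day 20) and 14.9% (day 30) of all genes separated in either direction. CDK2, CENPW, GINS2, ORC1 and KIF21A were on the day 20 list, so their day 20 side is part of the choice. KIF21A was on the day 30 list too, so its day 30 side is also part of the choice. The difference between the treatment effects was tested in a fit of all 26 samples, which called 0 of 14171 genes. Day 20 minus day 10 was 1.61 by log2 for CDK2, 2.02 for CENPW, 2.80 for GINS2, -1.62 for KIF9 and 1.95 for ORC1 (edgeR FDR 0.146, 0.24, 0.133, 0.192 and 0.287). Day 30 minus day 20 was -1.68 for CDK2 and 3.31 for KIF21A (edgeR FDR 0.221 and 0.228).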

How the results depend on the processing

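No log2 fold change of a member with P under 0.05 changed its direction under the alternatives run, in any of the 13 comparisons. In treated maturation the 5 calls among the 60 members on the list for time became 9 with DESeq2, 3 with voom, 1 with FDR under 0.05 alone, 1 with the replicate block and 0 without day 30, and 1 to 10 when 1 sample was left out; this count was added after seeing the data. The 4 calls among the 38 on that list alone, the count planned, became 8 with DESeq2, 2 with voom, 1 with FDR under 0.05 alone, 1 with the replicate block and 0 without day 30, and 1 to 8 when 1 sample was left out. The 51 members called in control maturation became 19 without day 20, and 39 to 50 with 1 sample left out. For treatment on day 20, 0 became 21 with DESeq2, 27 in the fit of all 26 samples, and 2 with RLE factors, no filter, filterByExpr or voom, and 0 to 11 with 1 sample left out. DESeq2 also called 2 members on day 30. The 26 members of the control step from day 10 to 20 became 0 with the replicate block, 1 in the fit of all samples and 0 to 30 with 1 sample left out. The treated step from day 20 to 30 gave 7 with DESeq2, 7 in the fit of all samples and 3 without the 3 alike libraries, and that from day 10 to 20 gave 2 with DESeq2 and 2 in the fit of all samples. The difference of both maturations gave 1 member with DESeq2. The cause of these changes was not tested.

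Over all genes, the 639 calls of treated maturation became 1620 with DESeq2, 305 with voom, 193 at FDR under 0.05 alone, 383 with the replicate block, 1124 without day 20, 0 without day 30 and 1586 without the 3 alike libraries. The 14 calls on day 20 became 1479 with DESeq2, 1559 in the fit of all samples, 109 with no filter and 1016 without day 20 treated 2. The replicate block moved no other count of members by over 1.5 times; the same-number pairs share only a number, and mean r was 0.0256 for treated and -0.0658 for control maturation. Genes of few reads and 3 samples in a group limit what could be seen.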
